A study of Mus musculus with 8 samples.

Results

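Hepatocytes make most of the proteins dissolved in blood plasma, and the genes for 41 such proteins and close partners were followed here through 8 mouse liver tumour lines. They comprise carriers and other secreted proteins, apolipoproteins, the heavy chains of inter-alpha-trypsin inhibitor, complement, the clotting cascade with fibrinogen, and inhibitors of clotting with plasminogen. The list was given by name, ceruloplasmin and its symbol Cp being the same gene, and its rule uses no measured value. A probe set naming exactly 1 gene represented each gene, and the rule of taking the highest mean over the lines was not needed, since each measured member had a single probe set. It gave 40 members of 22180 genes on the array; C3 was not analysed here.

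The clonal lines were established from tumours of C57BL/6 mice, and the series title describes their origin as transformed hepatocytes. In all 8, c-Myc and NrasG12V on the pCaMIN vector were the driving oncogenes, and there was no line without them. The 4 lines of intrahepatic cholangiocarcinoma (ICC), which resembles bile duct epithelium, came from focal electroporation in vivo. The 4 lines of hepatocellular carcinoma (HCC), which resembles hepatocytes, came from hydrodynamic injection into the tail vein, so type and delivery route cannot be told apart. By label the ICC lines are female (ICC9, ICC10) or male (ICC2.7, ICC2.9), and so are the HCC lines, with HCC2.1 and HCC2.4 female and HCC1 and HCC4 male. The cells were untreated and grew in DMEM with 10% fetal calf serum at 7.5% CO2, and each line gave 1 Affymetrix array from 100 ng of RNA. Whether any of the lines share an animal or tumour is not stated, so every p-value measures the spread between these lines. The sources used here give no age for the animals.

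Plasma proteins are secreted by differentiated hepatocytes under the control of a small set of transcription factors, among them HNF1, HNF4, C/EBP and FOXA proteins. Complement proteins circulate as inactive precursors that cut one another in sequence when a microbe or a damaged cell is met. Clotting factors do the same after tissue factor (F3) on a cell surface binds factor VII, and fibrinogen is the final substrate. Apolipoproteins hold lipoprotein particles together, and apolipoprotein B is the scaffold of the particles that carry triglyceride out of the liver. Tissue factor differs from the other clotting members in being a membrane protein of many non-hepatocyte cells, and C5ar1 is a receptor known mainly from myeloid cells.

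Of the 8 members whose levels differed most between lines, 6 are introduced by the 150 bases in front of their start sites, so that the letters can be set beside the levels; Proc, and Hamp, which was below background in every line, are not shown. The sequences are from RefSeq, build GRCm38.p6, and 32 of the 40 members had a window in that table. They lie at chr12:7977527-7977676 for Apob, chr16:22918232-22918381 for Fetub, chr1:164151685-164151834 for F5, chr3:121723387-121723536 for F3 and chr3:19957099-19957248 for Cp, all on the plus strand, and at chr2:10130684-10130833 on the minus strand for Itih2. Where the table had 2 starts (Fetub and Cp), the start with more motif matches is shown. Capitals mark exact matches, on either strand, of the TATA box TATAAA or of the C/EBP site TTGCNNAA. Each runs from 5′ to 3′ and ends at the base before the start:
Apob: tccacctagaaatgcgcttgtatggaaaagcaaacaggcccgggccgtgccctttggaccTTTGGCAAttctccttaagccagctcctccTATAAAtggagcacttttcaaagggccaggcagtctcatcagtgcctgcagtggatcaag
Fetub: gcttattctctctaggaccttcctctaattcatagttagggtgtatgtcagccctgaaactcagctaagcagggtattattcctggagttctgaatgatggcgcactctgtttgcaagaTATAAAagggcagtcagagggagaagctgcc
Itih2: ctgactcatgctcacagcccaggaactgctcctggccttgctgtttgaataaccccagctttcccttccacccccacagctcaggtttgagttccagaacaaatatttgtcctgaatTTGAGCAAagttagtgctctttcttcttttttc
F5: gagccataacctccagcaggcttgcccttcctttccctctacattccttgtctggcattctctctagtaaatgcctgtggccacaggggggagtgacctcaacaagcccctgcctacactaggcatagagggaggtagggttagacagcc
F3: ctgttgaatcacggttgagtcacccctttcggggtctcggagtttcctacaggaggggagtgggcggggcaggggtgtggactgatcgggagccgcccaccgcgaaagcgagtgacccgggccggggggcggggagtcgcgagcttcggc
Cp: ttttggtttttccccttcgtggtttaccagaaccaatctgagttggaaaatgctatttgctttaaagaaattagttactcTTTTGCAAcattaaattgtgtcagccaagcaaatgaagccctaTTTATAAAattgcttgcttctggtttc

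In the Apob stretch the first base of the TATA match lay 60 bases before the start and that of the C/EBP match 90 before it. Fetub held a TATA match that began 31 bases before the start, and Itih2 a C/EBP match that began 33 before it. Cp held overlapping TATA matches on opposite strands, beginning 27 and 25 bases before the start, and a C/EBP match at 70. None of 5 motifs matched in the stretches of F5 and F3. In the whole RefSeq windows, all of equal length and reaching further upstream and past the start, TTGCNNAA occurred for 15 of 32 members (46.9%) and for 12.2% of the 27025 genes with a window. TATAAA occurred for 10 members (31.3%) and 15.7% of genes, and the HNF1 motif GTTAAT for 9 members (28.1%) and 8.24% of genes. The HNF4 site CAAAGTCCA and the NF-kB site GGGANTTTC occurred for 0 members, and for 0.56% and 1.29% of genes. A match is a stretch of letters and no evidence of binding.

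Values are the deposited log2 values, and a difference of 1 is a factor of 2 in signal. Values of ICC lines are listed in the order ICC9, ICC10, ICC2.7, ICC2.9, and those of HCC lines in the order HCC1, HCC4, HCC2.1, HCC2.4. As a yardstick of background served 1428 genes for olfactory, vomeronasal and taste receptors, which liver cells are not known to use. A member is called above background in a line when its value exceeded the 95th percentile of these genes there, which was 5.02 to 5.10 by line. The median of the receptor genes was far lower, 2.845 to 2.92 by line, and their highest value was 12.79. A member just below the threshold is therefore above most receptor genes. Probe sets differ in affinity, so this describes signal and does not rank genes or show that a gene below it is silent. The median of all genes was 5.62 to 5.68 by line. The 8 columns of the table span only 7 independent directions: each is nearly a weighted sum of the others, so the lines are not 8 fully separate measurements, and results with this direction in the model are given where they change a call. The sex labels matched Xist (11.26 to 11.59 in female-labelled lines, 4.02 to 4.64 in male-labelled ones) and Kdm5d (3.54 to 4.13 against 7.59 to 8.24).

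Few plasma protein genes were above background throughout, in either tumour type. Of the 40 members, 9 were above background in all 8 lines, against 54.3% of all genes, 13 in some of the lines, against 12% of genes, and 18 in none, against 33.7%. By line, 17, 18, 14, 16, 18, 13, 16 and 17 members were above background, while 59.1% to 61.1% of all genes were. The 9 were Apoa1, Apoa2, Apoc3, Apoe, Rbp4, Hpx, F3, F7 and F10. With the 99th percentile of the receptor genes, only Apoa2 and F3 exceeded the threshold in every line, and 30 members did so in none. Of 10 hepatocyte markers, Apoa1 alone was above background in all lines and 5 were in none (Alb, Fga, Serpina1a, Cyp2e1 and Tat). Alb, Ttr, Apoa1, Ahsg and Fga are members themselves, so they add no separate evidence. Of the markers outside the list, Serpina1a, Cyp2e1 and Tat were above background in no line, Cps1 in 3 and Asgr1 in 2. These low markers go against the hepatocyte name of the list.

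**Figure D1:**
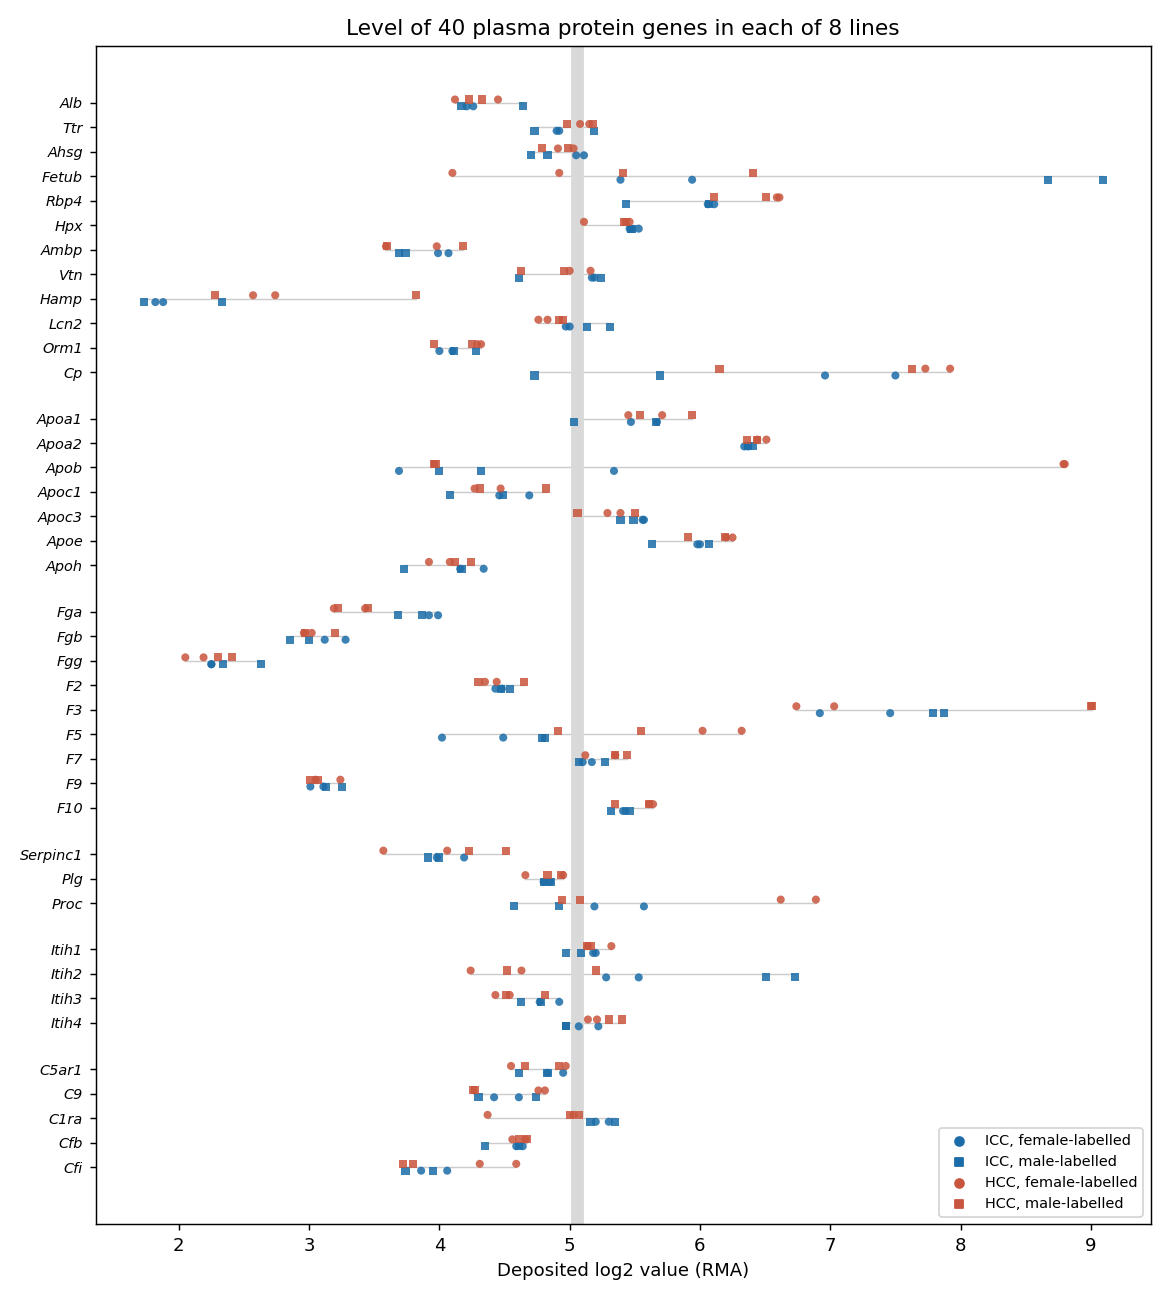
Deposited log2 value (horizontal axis) of each of the 40 members (rows, in groups by role) in each line, with ICC lines in blue and HCC lines in red, circles for female-labelled and squares for male-labelled lines. Grey lines join the lowest and highest line of a member, and the grey band spans the background thresholds of the lines, 5.02 to 5.10; most members lie at or left of the band, and Apob, Fetub and Cp have the longest lines.

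The spread of a member over the lines separated a few genes from the rest. Among receptor genes the difference between highest and lowest line had a median of 0.72 and a 99th percentile of 1.68. A range above 1.68 was found for 8 members, which compares with 4.7% of all genes: Apob (5.11), Fetub (4.99), Cp (3.19), Itih2 (2.49), Proc (2.32), F5 (2.30), F3 (2.27) and Hamp (2.09). The ranges of the other 32 members were 0.17 to 1.18, with a median of 0.50. Of the 8, only Hamp was below background in every line.

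**Figure D2:**
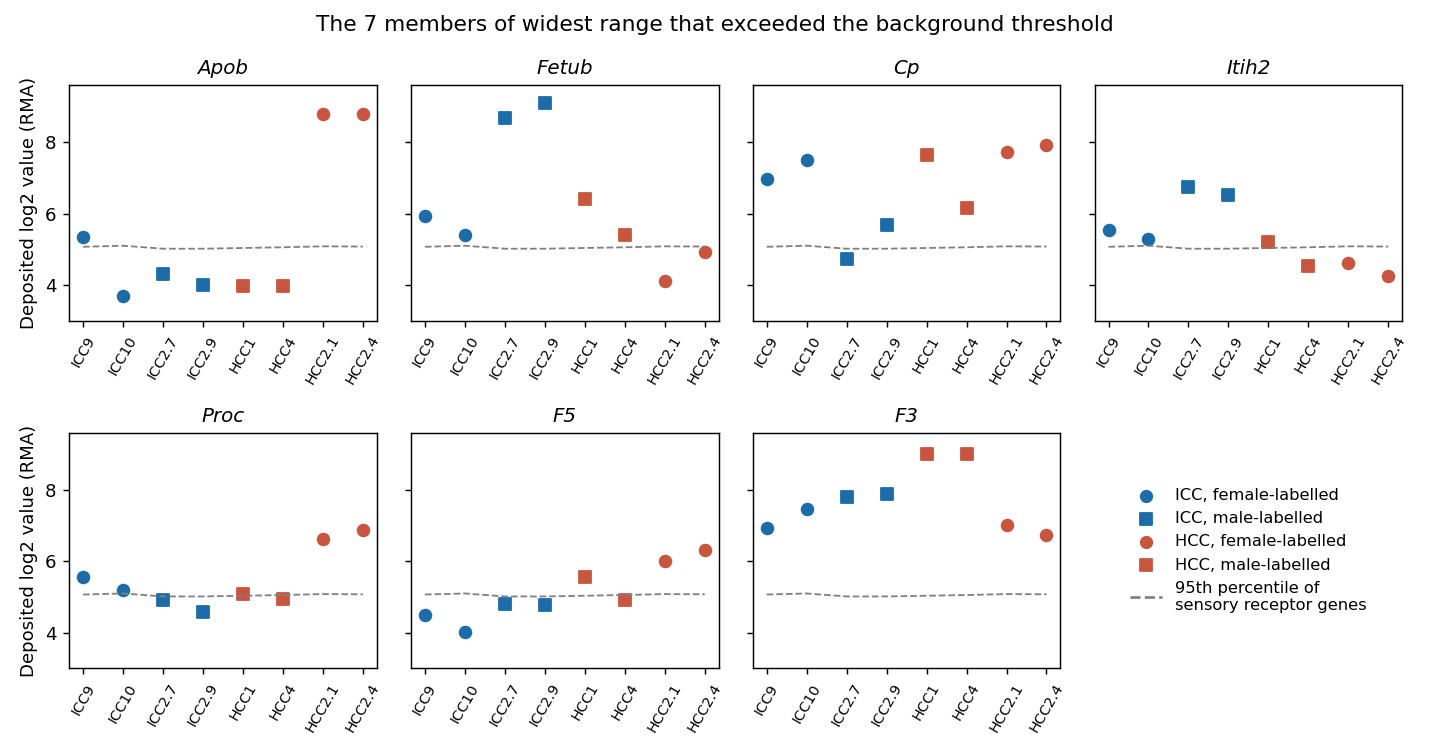
Deposited log2 value (vertical axis) in each line (horizontal axis) for the 7 members with a range above 1.68 that exceeded background in at least 1 line, with colours for tumour type and shapes for labelled sex. The dashed line is the background threshold of each line; Apob and Proc are highest in HCC2.1 and HCC2.4, Fetub and Itih2 in ICC2.7 and ICC2.9, and F3 in HCC1 and HCC4.

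Among the 7 apolipoproteins, Apob stood out: it was high in HCC2.1 and HCC2.4, passed the background threshold in ICC9, and was below it elsewhere. Its values were 5.34, 3.69, 4.32 and 4.0 in the ICC lines and 3.96, 3.97, 8.80 and 8.79 in the HCC lines. HCC2.1 and HCC2.4 lay well above every other line, ICC9 came next, and the highest and lowest lines differed 34.5-fold. No group mean describes this gene, and the mean of the HCC lines, 6.38 ± 2.79 (SD, n = 4), lies where no line does.

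The remaining apolipoproteins varied far less than Apob, with ranges of up to 0.91 (Apoa1). Apoa2, the second protein of high-density lipoprotein, read 6.37, 6.34, 6.37 and 6.41 in ICC lines and 6.44, 6.36, 6.44 and 6.51 in HCC lines, a range of 0.17. Apoe, which brings lipoproteins to their receptors, read 5.98, 6.00, 6.07 and 5.63 against 6.19, 5.91, 6.25 and 6.20. Apoa1, the main protein of high-density lipoprotein, read 5.47, 5.67, 5.66 and 5.03 against 5.94, 5.54, 5.45 and 5.71. These 3 overlapped between types, and Apoa1 in ICC2.9 was barely over the threshold. Apoc3, an inhibitor of lipoprotein lipase, read 5.57, 5.56, 5.39 and 5.49 in ICC lines and 5.06, 5.50, 5.29 and 5.39 in HCC lines. Apoc1 (4.08 to 4.82) and Apoh (3.73 to 4.34) were above background in no line. Although Apoa1 and Apoc3 neighbour each other in the genome, and Apoc1 lies beside Apoe, neither neighbour pair came near the range of Apob.

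Carriers and other secreted proteins had 12 measured members, of which 2 were above background in all lines (Rbp4 and Hpx), 6 in some and 4 in none. Albumin (Alb), the most abundant plasma protein, was below it throughout, with 4.26, 4.21, 4.17 and 4.64 in ICC lines and 4.33, 4.23, 4.12 and 4.45 in HCC lines. Ambp (3.59 to 4.18), Orm1 (3.96 to 4.32) and Hamp were the others in none. Transthyretin (Ttr), which carries thyroid hormone, read 4.92, 4.90, 4.73 and 5.19 against 5.18, 4.98, 5.15 and 5.08, close to the threshold in every line.

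Fetub, a secreted protease inhibitor of the cystatin superfamily, varied most of the carriers. It read 5.94, 5.39, 8.67 and 9.09 in the ICC lines and 6.41, 5.41, 4.10 and 4.92 in the HCC lines. ICC2.7 and ICC2.9 were highest, HCC1 came next, and ICC10 and HCC4 were nearly equal, so the types overlapped. Ahsg, the related fetuin-A gene beside Fetub in the genome, read 5.05, 5.11, 4.70 and 4.83 against 4.79, 4.99, 5.03 and 4.91, a range of 0.41 next to the 4.99 of Fetub.

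Cp, the copper-carrying ferroxidase of plasma, read 6.96, 7.50, 4.73 and 5.69 in ICC lines and 7.63, 6.15, 7.73 and 7.92 in HCC lines. It was below background in ICC2.7 alone, and was lower in ICC2.7, ICC2.9 and HCC4 than in the other 5 lines. The lines differed up to 9.13-fold. Rbp4, the carrier of retinol, read 6.06, 6.11, 5.43 and 6.07 against 6.51, 6.11, 6.59 and 6.61, with ICC10 and HCC4 at the same value and no ICC line above an HCC line.

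Hpx, the haem scavenger haemopexin, was flat at 5.46, 5.53, 5.48 and 5.47 in ICC lines and 5.42, 5.43, 5.11 and 5.46 in HCC lines. Vtn, the adhesive protein vitronectin, read 5.19, 5.17, 5.24 and 4.61 against 4.63, 4.96, 5.0 and 5.16. Lcn2, an iron-siderophore binding protein of the acute phase, read 5.0, 4.97, 5.13 and 5.31 against 4.95, 4.92, 4.83 and 4.76. All ICC lines were above all HCC lines for Lcn2, yet the gap was small and only ICC2.7 and ICC2.9 passed the background threshold. Hamp, the iron hormone hepcidin, read 1.88, 1.82, 1.73 and 2.33 against 2.28, 3.82, 2.57 and 2.74, far below background in every line, so its range is one of low signal.

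The heavy chains of inter-alpha-trypsin inhibitor, some of which are joined to hyaluronan in the matrix around cells, divided into 1 variable and 3 flat genes. Itih2 read 5.53, 5.28, 6.73 and 6.51 in the ICC lines and 5.20, 4.52, 4.63 and 4.24 in the HCC lines. Every ICC line was above every HCC line, though ICC10 and HCC1 were close, and of the HCC lines HCC1 alone was above background. Itih1 read 5.18, 5.20, 4.97 and 5.09 against 5.16, 5.13, 5.32 and 5.14. Itih4 read 5.07, 5.22, 4.97 and 4.97 against 5.40, 5.30, 5.14 and 5.21. These overlapped between types, and Itih3 (4.43 to 4.92) was above background in no line. Itih1, Itih3 and Itih4 lie together in the genome, apart from Itih2.

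In the clotting cascade, tissue factor (F3), which starts clotting, was above background in all lines. It read 6.92, 7.46, 7.79 and 7.87 in the ICC lines and 9.01, 9.0, 7.03 and 6.74 in the HCC lines. HCC1 and HCC4 were highest, while HCC2.1 and HCC2.4 lay among the lowest values with ICC9, so the ICC lines fell inside the spread of the HCC lines. F5, the cofactor that speeds the making of thrombin, read 4.49, 4.02, 4.81 and 4.79 against 5.55, 4.91, 6.02 and 6.32. All HCC lines were above all ICC lines, with HCC4 close to ICC2.7, and only HCC1, HCC2.1 and HCC2.4 were above background.

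The enzymes of the cascade were low and flat. F10, which makes thrombin from prothrombin, read 5.43, 5.41, 5.32 and 5.46 in ICC lines and 5.61, 5.35, 5.64 and 5.61 in HCC lines. F7, the partner of tissue factor, read 5.10, 5.17, 5.27 and 5.07 against 5.44, 5.35, 5.12 and 5.35. Both sat close to the threshold, and the types overlapped. Prothrombin (F2, 4.30 to 4.65) and F9 (3.01 to 3.25) were below background in all lines.

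The fibrinogen chains were below background in every line. Fga read 3.92, 3.99, 3.87 and 3.68 in the ICC lines and 3.22, 3.45, 3.19 and 3.43 in the HCC lines, so the types did not overlap, at a level where no line passed the threshold. Fgb (2.85 to 3.28) and Fgg (2.05 to 2.63) overlapped between types, although the 3 chains are encoded side by side and assemble into 1 protein.

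Of the inhibitors and the clot-dissolving system, protein C (Proc), which once activated destroys the activated forms of factors V and VIII, read 5.57, 5.19, 4.92 and 4.57 in ICC lines and 5.08, 4.94, 6.62 and 6.89 in HCC lines. HCC2.1 and HCC2.4 were highest, as they were for Apob and F5, and the other 2 HCC lines lay among the ICC lines. Antithrombin (Serpinc1, 3.57 to 4.51) and plasminogen (Plg, 4.66 to 4.95) were above background in no line.

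Complement was largely in the background range. C1ra, a protease of the first complement component, was the 1 of 5 measured members to pass the threshold in any line, with 5.20, 5.30, 5.35 and 5.16 in ICC lines and 5.07, 5.0, 5.03 and 4.37 in HCC lines. All ICC lines were above all HCC lines, and HCC1 was the only HCC line over the threshold. C9, which forms the membrane pore (4.26 to 4.81), Cfb, the protease of the alternative pathway (4.35 to 4.67), and C5ar1, the receptor for C5a (4.55 to 4.97), were in the background range. Cfi, which degrades C3b, read 3.72 to 4.59.

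The comparison of tumour types asked whether ICC and HCC lines differ in these genes. No member passed an adjusted p of 0.05 in limma, where 58 genes of 22180 did (0.261%). At an unadjusted p under 0.05 there were 8 members of 40, against 14.1% of all genes, and in 5 members the types did not overlap, against 8.63% of all genes. The median difference, ICC minus HCC, was -0.03 over the members and 0.00 over all genes, and the median absolute difference was 0.155 and 0.13. The difference was positive for 17 members and negative or 0 for the others.

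The 5 members that were higher in ICC lines at an unadjusted p under 0.05 were Fetub, Itih2, Fga, C1ra and Lcn2. Fetub differed by 2.06 (SE 0.87, limma adjusted p = 0.334), from a mean of 7.27 ± 1.88 (SD, n = 4) in ICC lines to 5.21 ± 0.97 (SD, n = 4) in HCC lines. Itih2 differed by 1.37 (SE 0.34, limma adjusted p = 0.143), or 2.58-fold, with means of 6.01 ± 0.71 (SD, n = 4) and 4.65 ± 0.40 (SD, n = 4). Fga, below background throughout, had the smallest p of any member, with a difference of 0.54 (SE 0.10, limma adjusted p = 0.0798). The differences of C1ra (0.39, SE 0.16) and Lcn2 (0.24, SE 0.10) had limma adjusted p of 0.316 and 0.330, and that of C1ra was 0.22 without HCC2.4.

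The 3 that were lower in ICC lines were F5, Rbp4 and Hamp. F5 differed by -1.17 (SE 0.30, limma adjusted p = 0.149), or 2.25-fold, with means of 4.53 ± 0.37 (SD, n = 4) in ICC lines and 5.70 ± 0.61 (SD, n = 4) in HCC lines. Rbp4 differed by -0.54 (SE 0.18, limma adjusted p = 0.235) and Hamp by -0.91 (SE 0.31, limma adjusted p = 0.238), which became -0.59 without HCC4.

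Size and evidence came apart for Apob, Cp, Proc and F3. Apob differed by -2.04 with an SE of 1.19 (limma adjusted p = 0.479), close to the size of Fetub, and the spread within the HCC lines was larger than the difference. Cp differed by -1.14 (SE 0.62, limma adjusted p = 0.448), Proc by -0.82 (SE 0.46, limma adjusted p = 0.459) and F3 by -0.44 (SE 0.54, limma adjusted p = 0.765). These sizes moved with single lines: Apob became -1.24 without HCC2.1 or without HCC2.4, Cp -0.64 without ICC2.7, and Proc -0.48 without HCC2.4. F3 became -0.08 without HCC1 or without HCC4, -0.24 without ICC9, -0.74 without HCC2.1 and -0.84 without HCC2.4. The other 28 members differed by between -0.22 and 0.20, with a smallest limma adjusted p of 0.378. Albumin was among them at 0.04, as were Ttr at -0.16 and Apoa1 at -0.20.

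**Figure D3:**
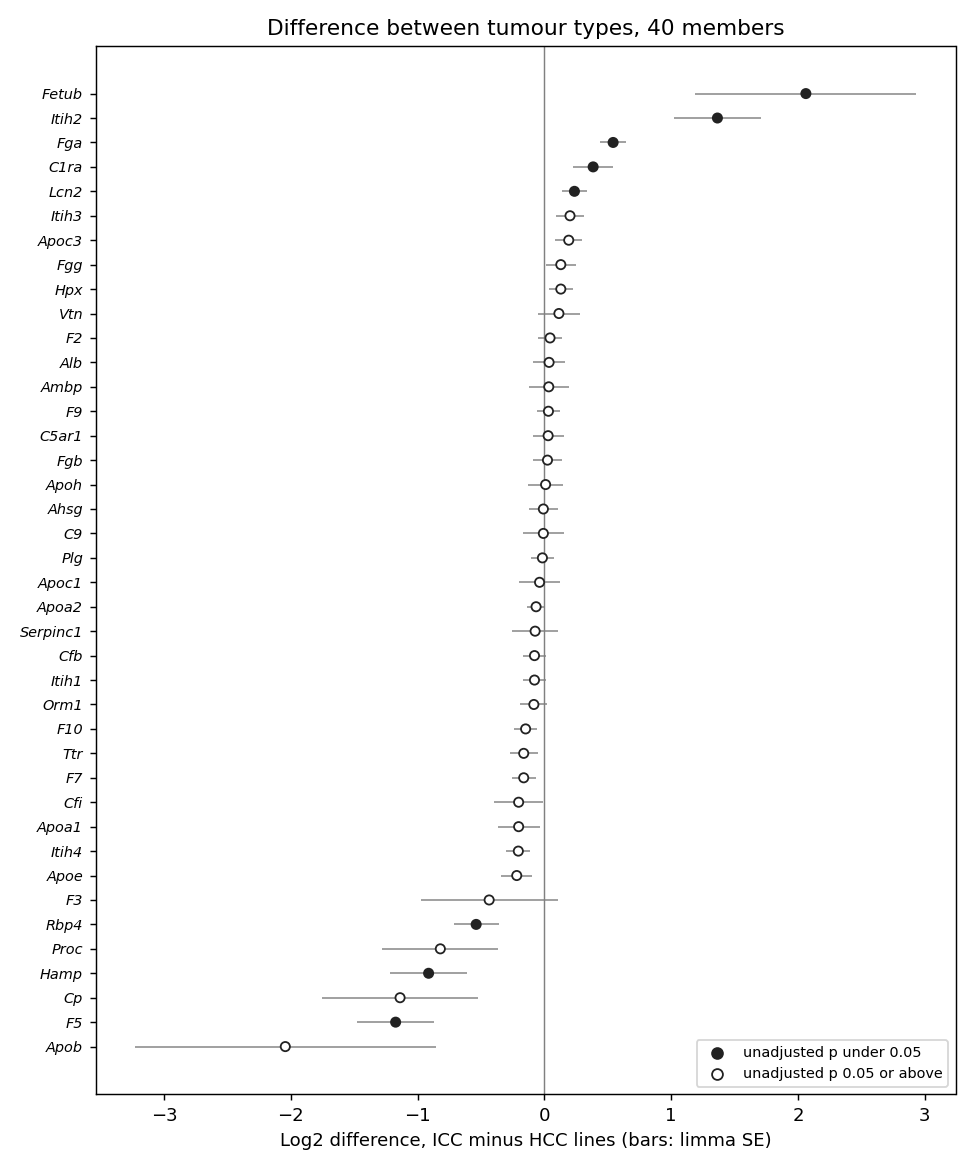
Log2 difference between the mean of the 4 ICC lines and the mean of the 4 HCC lines (horizontal axis, positive where ICC lines were higher) for each of the 40 members, ordered by size. Bars are the limma SE and filled points have an unadjusted p under 0.05; the differences run from -2.04 for Apob to 2.06 for Fetub, and no member passed after adjustment over all genes.

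Sex labels were set against the same values because each type holds 2 female-labelled and 2 male-labelled lines. The male-labelled ICC lines and the female-labelled HCC lines are also those with a 2 before the point in their names, so labelled sex within a type and this naming cannot be told apart. In the female-labelled lines alone, 5 members passed: Apob differed between ICC and HCC by -4.28 (limma adjusted p = 0.0332), F5 by -1.92 (limma adjusted p = 0.0285), Proc by -1.38 (limma adjusted p = 0.0332), Hamp by -0.81 (limma adjusted p = 0.0332) and Rbp4 by -0.52 (limma adjusted p = 0.0485). In the male-labelled lines alone, Fetub differed by 2.97 (limma adjusted p = 0.0411) and F3 by -1.18 (limma adjusted p = 0.0358). Each of these fits has 2 lines a side, and 696 and 200 genes passed in them. In each fit the types also differ in the naming of their lines, so type and naming cannot be told apart.

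For Apob and F3 the type difference had opposite signs in the 2 labelled sexes, and the test of that contrast did not pass. Apob differed by 0.20 in the male-labelled lines (limma adjusted p = 0.602), in each of which it was below background. F3 differed by 0.31 in the female-labelled lines (limma adjusted p = 0.407). That test, the interaction of type and sex, gave -4.48 for Apob (SE 0.63, limma adjusted p = 0.113) and 1.48 for F3 (SE 0.26, limma adjusted p = 0.113). It gave -1.49 for F5 (SE 0.34, limma adjusted p = 0.118) and -1.11 for Proc (SE 0.26, limma adjusted p = 0.119). The interaction sets the lines with a 2 before the point in their names against the others, so it cannot be told apart from that naming. No gene of 22180 passed this test in limma (0%, with 4467 at an unadjusted p under 0.05, 8 of them members). With the missing direction in the model 255 genes passed, Apob and F3 among them, as both did without ICC9, while without ICC10 Apob alone of the members did.

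**Figure D4:**
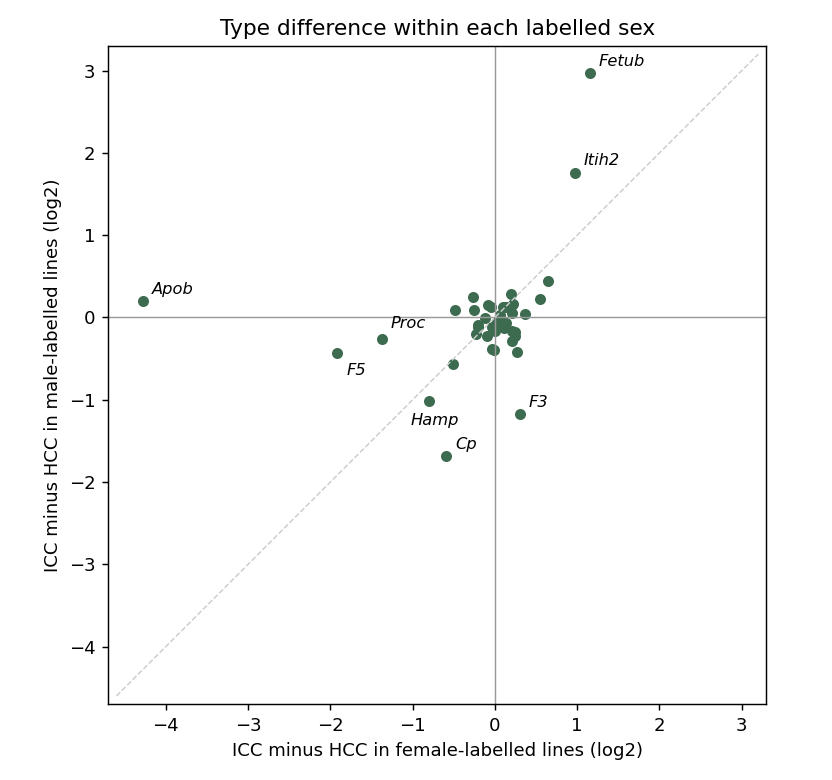
Log2 difference, ICC minus HCC, in the 4 female-labelled lines (horizontal axis) and in the 4 male-labelled lines (vertical axis), 1 point per member, with the dashed diagonal where both are equal. Most members lie near the origin; Apob lies far left of the diagonal at -4.28 and 0.20, Fetub high at 2.97 on the vertical axis, and F3 below 0 on the vertical axis only.

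Between female-labelled and male-labelled lines of both types, 653 genes passed (2.94%), 3 of them members. Female minus male, Fetub had a difference of -2.31 (SE 0.42, limma adjusted p = 0.0291), and F3 one of -1.38 (SE 0.29, limma adjusted p = 0.0496). Proc was higher in female-labelled lines, by 1.19 (SE 0.23, limma adjusted p = 0.0382). In HCC lines Proc read 6.62 and 6.89 in female-labelled and 5.08 and 4.94 in male-labelled lines. In ICC lines it read 5.57 and 5.19 against 4.92 and 4.57, so the sexes lay closer. F3 read 7.03 and 6.74 against 9.01 and 9.0 in HCC lines. It read 6.92 and 7.46 against 7.79 and 7.87 in ICC lines, again closer. For Fetub the sexes lay closer in HCC lines. The calls did not hold with the missing direction in the model, where limma adjusted p was 0.0602 for Fetub, 0.100 for F3 and 0.0817 for Proc. No member was called without ICC9, without ICC2.9 or without HCC2.1. Fetub was still called without HCC4 and without HCC2.4, Proc without ICC10 and without ICC2.7, and F3 without ICC10, and in no other fit that left out a line.

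Lines of the same type and labelled sex form 4 pairs, and members differed within these too. The mean absolute difference over the members was 0.18 between ICC9 and ICC10, 0.27 between ICC2.7 and ICC2.9, 0.21 between HCC2.1 and HCC2.4 and 0.30 between HCC1 and HCC4, above the 0.126, 0.213, 0.178 and 0.264 found over all genes. The largest single differences were Apob between ICC9 and ICC10 (1.65), Cp between ICC2.7 and ICC2.9 (0.96), Fetub between HCC2.1 and HCC2.4 (0.82) and Hamp between HCC1 and HCC4 (1.54).

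Other plasma protein genes were listed alongside the members. Of 63 listed, 53 were measured: 10 were above background in all lines, 8 in some and 35 in none. None was called between types in either direction over all lines, and 12 had an unadjusted p under 0.05, against 14.1% of all genes. In complement, Mbl2, the mannose-binding lectin, differed by 0.51 (limma adjusted p = 0.146) and Hc, complement C5, by -0.96 (limma adjusted p = 0.168). Mbl2 was below background in all lines, and Hc was above it only in HCC1 and HCC4. In clotting, the plasmin inhibitor Serpinf2 differed by 0.19 (limma adjusted p = 0.290) and F12 by -0.30 (limma adjusted p = 0.301). Serpinf2 was below background in all lines, and F12 was above it in 5. Of lipid carriers, Lcat, which esterifies cholesterol in plasma, differed by 0.50 (limma adjusted p = 0.103) and Pltp by 0.53 (limma adjusted p = 0.385). Of the acute phase list, Fgl1 differed by 0.61 (limma adjusted p = 0.0798) and Saa3 by 0.39 (limma adjusted p = 0.117), both below background in all lines.

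Masp1, a protease of the lectin pathway chosen after its values were seen, read 5.73, 4.97, 7.84 and 7.02 in ICC lines and 6.79, 7.65, 7.03 and 6.96 in HCC lines, so this complement gene was above background in 7 lines. Surface regulators and receptors of clotting and complement, most of which sit on the cell, had 23 measured genes, 14 of them above background in all lines and 1 in none. The thrombin receptor F2r differed by -0.47 between types (limma adjusted p = 0.149) and Clu, a chaperone that also restrains complement, by -1.51 (limma adjusted p = 0.128). None of the 23 was called between types over all lines, with 8 at an unadjusted p under 0.05, against 14.1% of all genes. In fits with 2 lines a side, Clu differed by -1.32 in female-labelled lines (limma adjusted p = 0.0192). In male-labelled lines it differed by -1.705 (limma adjusted p = 0.0333). Cd59a (-0.905, limma adjusted p = 0.0315) and Lrp1 (-0.845, limma adjusted p = 0.0468) passed in female-labelled lines only. Thbd, the thrombomodulin that lets thrombin activate protein C, was also chosen after its values were seen. It read 6.01, 5.09, 7.88 and 7.37 in ICC lines against 5.08, 4.99, 5.56 and 5.35 in HCC lines. Its type difference was 2.59 in male-labelled lines (limma adjusted p = 0.0180) and 0.095 in female-labelled lines (limma adjusted p = 0.873).

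Of 33 measured regulators of hepatocyte genes, 22 were above background in all lines and 8 in none. The 1 called between types was Tbx3, a repressor the study singled out on these lines, so it is no independent evidence. Its values were 6.27, 6.15, 5.87 and 6.01 in ICC lines and 7.09, 7.09, 7.76 and 7.55 in HCC lines, a difference of -1.30 (limma adjusted p = 0.0252). Hnf4a, the nuclear receptor of hepatocyte identity, was chosen after its values were seen and read 5.92, 5.36, 5.37 and 5.40 against 5.32, 5.70, 7.26 and 7.06, so it was highest in the lines with the highest Apob. Foxa1, chosen likewise, read 9.28, 9.18, 9.0 and 8.79 against 9.43, 9.27, 10.05 and 9.96. Not all regulators followed Apob. Over the 8 lines, the Pearson correlation with Apob was 0.98 for Hnf4a and 0.89 for Foxa1. For Cebpa it was 0.43, for Foxa3 -0.30 and for Foxa2 -0.41. Onecut1 (0.52) and Nr5a2 (-0.50) were below background in all lines.

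Markers of other cell types were set beside the members. The mean of 10 mesenchymal markers was 6.48 to 7.33 in ICC lines and 6.33 to 6.69 in HCC lines, and 1 of them, Col3a1, was called between types, with a difference of 1.67 (limma adjusted p = 0.0252). Des lay the other way at -0.87 (limma adjusted p = 0.230), and Pdgfra and Lrat differed by 0.00 and 0.03. Of the mesenchymal markers, 6 were above background in all lines, with Vim highest at 13.40 to 13.58. Lrat and Dcn were above it in no line. The mean of 8 measured bile duct markers was 5.96 to 6.74 in ICC lines and 5.87 to 7.03 in HCC lines. None was called between types, and 5 were above background in all lines: Krt7, Krt19, Sox9, Cdh1 and Tspan8. Sox9 read 11.45 to 11.86, while Cftr and Prom1 were above background in no line. The mean of 10 macrophage and neutrophil markers was 4.65 to 5.14 and 4.89 to 5.12, and 3 of them were above background in all lines, Csf1r, C1qa and Cd68, the last at 7.31 to 10.21. Ptprc, Adgre1, S100a8 and S100a9 were above it in no line. Cd68 differed between types by -1.125 over all lines (limma adjusted p = 0.399). Its difference was -2.54 in male-labelled lines (limma adjusted p = 0.0250) and 0.285 in female-labelled lines (limma adjusted p = 0.641). The mean of 6 endothelial markers was 4.68 to 4.86 and 4.71 to 4.86. The mean of 10 hepatocyte markers, 5 of which are no members, was 4.52 to 4.55 in ICC lines and 4.53 to 4.70 in HCC lines. The part of any of these in the differences above was not tested.

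As a description over 8 lines, the genes whose pattern was most like that of the 3 widest members were listed by Pearson correlation, with no test. Those most like Apob were Olfr1129 (0.994), Trim25 (0.993), Map3k11 (0.990), Zscan2 (0.989) and Capn11 (0.989), and all are higher in HCC2.1 and HCC2.4 than in the other 6 lines. Olfr1129 is itself a receptor gene of the background yardstick and read 1.96 to 2.55. Those most like Fetub were Arl14ep (0.991), Lars (0.991), Mthfd1 (0.989), Slc25a33 (0.988) and Pphln1 (0.987). Those most like Cp were Slco4a1 (0.984), Cela3b (0.984), Rgs13 (0.983), Clmn (0.981) and Ets2 (0.981). Cela3b (3.29 to 3.81) and Rgs13 (2.49 to 2.89) were below background in all lines. The points share the lines and, in pairs, the type and sex, and 22180 genes were searched, so high values are found by the search itself. Many of these genes span a much smaller range than the member they follow, for example Trim25 at 0.61 against 5.11 for Apob.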

How the data were processed

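RNA of 8 lines (4 ICC and 4 HCC) was measured on Affymetrix arrays. The deposited log2 values were made by the authors with RMA in oligo, per the submitters' processing notes; no source used here gives versions, a genome build or an annotation. RMA corrects background, quantile-normalizes arrays and summarises probes, which can shrink differences of dim genes. Of 39993 probe sets, 23521 name 1 gene, 1814 several and 14658 none; 22180 genes remained, each represented by the probe set of highest mean. All 8 value columns were used. No scanner files were used, and the number of arrays limits precision.

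Types, sexes (with type in the model) and their interaction were fitted by lmFit and eBayes of limma 3.58.1 (R 4.3.3), with two-sided tests. Benjamini-Hochberg adjustment ran over all 22180 genes, and a gene passed, or was called, at an adjusted p under 0.05. An SE is limma's and a value after ± is an SD. The type fit had 6 residual degrees of freedom. The fit was run on simulated data with independent lines, which cannot show how it behaves when lines depend on one another as here. Tables were joined with Python 3.11.15 and pandas 2.3.3.

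Although the rule for members is a list of names and uses no value, the members, like the other lists and the tests, were chosen with earlier results of these data known. By rule, all members are accounted for, and each line's value is given for members above background in a line or with an unadjusted p under 0.05 between types. From each list of other plasma protein genes, of surface regulators and of hepatocyte regulators, called genes or the 2 with the smallest p are named. Replicate numbers 1 to 4 follow accession order and pair nothing. Alternatives were trend and robust eBayes, other filters, normalizations and probe-set rules, array weights, blocks, covariates, single sexes and leaving out lines.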

Additional observations from a re-analysis of the deposited data

Results flagged for a closer look

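In 80 groups of 4 lines (40 members in 2 types), the highest or lowest line was set against Dixon's 95% critical value for its gap to the next line over the whole range of the group. It stood beyond that value in 7 groups, and at this level about 5% of groups are expected to by chance. Rbp4 was low in ICC2.7 (5.43, the other ICC lines 6.06 to 6.11), and Vtn was low in ICC2.9 (4.61, against 5.17 to 5.24). Of HCC lines, Cp was low in HCC4 (6.15, against 7.63 to 7.92) and so was F10 (5.35, against 5.61 to 5.64). HCC2.1 was low for Hpx (5.11, against 5.42 to 5.46) and high for Itih1 (5.32, against 5.13 to 5.16). C1ra was low in HCC2.4 (4.37, against 5.0 to 5.07).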

How the results depend on the processing

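Precision is limited by 4 lines a type and, within a sex, 2. Between types the count of 58 genes became 103 with genes above the median level only, 2278 with array weights (which did not converge), 36 with all probe sets, 6 with a random block for lines that share type and sex (consensus correlation 0.398), 0 with those lines averaged (1170 at an unadjusted p under 0.05 in limma), 428 with sex in the model, 12 with the missing direction, 119 with both, 696 and 200 in female-labelled and male-labelled lines, and 95 with genes above background only (an alternative chosen after seeing the data). Leaving out each line gave 2 to 109: 2 without ICC9, 4 without HCC2.1, 5 without HCC2.4, 16 without ICC2.7, 28 without ICC2.9, 91 without HCC4 and 109 without HCC1. Members called were 5 with array weights (F5, Fga, Hamp, Itih2 and Rbp4), 2 with sex in the model (Fga and Itih2), 5 and 2 in female-labelled and male-labelled lines, and 0 to 0 without each line. With the missing direction added to sex, 0 were called, as Fga and Itih2 had limma adjusted p of 0.124 and 0.0622. Of the 12 members re-examined singly under each alternative, Apob and F3 turned direction. Apob did so at 0.20 in male-labelled lines, where it was below background, and F3 at 0.31 in female-labelled lines. The other 28 were not re-examined this way, and some of their small differences differ in sign between sexes.

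For sex, 280 genes and 0 members were called with the missing direction, and 146 to 917 genes and 0 to 2 members without each line, where Cp without HCC1 and Itih2 without HCC4 were members called anew. For the interaction, 255 genes and 2 members were called with the missing direction, and 0 to 238 genes and 0 to 2 members without each line. Members above background by line, with lines in the report's order, ICC first, were 4, 4, 5, 5, 6, 4, 7 and 8 with the 99th percentile of the receptor genes, and 6, 5, 5, 6, 7, 5, 9 and 9 with the median of all genes. No paired analysis was possible because replicate numbers follow accession order only.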
